A study of Mus musculus with 2 samples.

Results

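In 2 polyA RNA-seq libraries of mouse gut tissue, 104 of 43346 annotated genes were led by a single transcript that the annotation calls a retained intron. That transcript held at least 50% of the gene's TPM, a level estimated from reads per length. By reads it held at least 50% in both libraries in 32 of the 104 genes. The members were selected on measured values. Each had a gene level of at least 10 TPM (reads per length, scaled to a fixed total per library) in both libraries. In each, 1 transcript of the type retained_intron had an IsoPct, its percent of the gene's TPM, of at least 50 in both libraries. Of all annotated genes, 6490 reached 10 TPM in both libraries, and 2846 of those carry an annotated retained-intron transcript. The members were 1.602% of the 6490 genes, and all but Gm10499 are of the protein-coding gene type. The other 2742 genes with an annotated retained-intron transcript served as the comparison, each represented by its retained-intron transcript of highest mean IsoPct.

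Both libraries belong to 1 group. They were made from tissue labelled large intestine, taken from littermates of both sexes of the strain C57BL/6J at an age of 8 weeks, with male and female tissue pooled. The labels number them as biological replicates 1 and 2, and name no treatment or mutation. Reads were stranded pairs of 76 nt from RNA longer than 200 nt that was depleted of rRNA and enriched for polyA. Depth was 50189618 expected counts in replicate 1 and 58233142 in replicate 2. Several markers of large intestine went against the tissue label. Car1, a colonic carbonic anhydrase, had 0.23 and 0.27 TPM, Aqp8 had 0.04 TPM in each library, and Hoxa13 and Hoxd13 were at 0. Muc2, also listed as a marker of large intestine, was high, at 1791 and 2000 TPM. Of the genes listed for small intestine, the Paneth cell lysozyme Lyz1 had 4597 and 6826 TPM and the ileal bile acid binder Fabp6 477 and 5279 TPM. Lct, also listed for small intestine, had 152 TPM in replicate 1 and 9.94 TPM in replicate 2. Some listed markers of each tissue are not reported here. With 1 library against 1 and no second group, no test between conditions could be made, and all values below are descriptions.

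Introns are removed from most transcripts before export from the nucleus. A transcript that keeps one may stay in the nucleus, or be degraded in the cytoplasm when the intron brings a premature stop codon, or encode another protein. The annotation type retained_intron is given to a transcript model whose exons run into intronic sequence of a coding transcript of the same locus. Such a model need not hold a whole intron: many are short, partial models that begin or end inside an intron.

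The sequences at the splice sites that these transcripts run across show what the label rests on in the highest members. Sites are given on the gene's strand, 5′ to 3′, from the GENCODE M21 transcript sequences on GRCm38 (mm10). Capitals mark the first bases (GT) or the last bases (AG) of the intron that the transcript reads through. At a 3′ site 16 bases before the AG and 12 coding bases after it are shown, and at a 5′ site 12 coding bases before the GT and 16 bases after it.
Rps2-203, 3′ site of the intron at chr17:24720732-24720968, plus strand: acctaagtcttctcatAGgctttcgtcgct
Fcgbp-206, 3′ site of the intron at chr7:28107495-28113927, plus strand: cttgcctcttccccacAGctctccagtgtc
Gnb1-206, 3′ site of the intron at chr4:155551722-155553317, plus strand: catttcttcctgcaccAGtgccctgtggga
Gabarap-204, 3′ site of the intron at chr11:69992444-69992581, plus strand: atctcctgtttttggcAGttggtcaattct
2200002D01Rik-202, 3′ site of the intron at chr7:29248241-29248356, minus strand: ctcccctctcctccgcAGccctgggccctg
Taf10-202, 3′ site of the intron at chr7:105743985-105744086, minus strand: ctgttgattctccttcAGcttcggtggcag
Rps9-206, 5′ site of the intron at chr7:3704769-3705732, plus strand: gtctgtttgaagGTgtgtatgagcctattt

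All 7 sites had the usual AG or GT. Of these 7 transcripts, only Gabarap-204 held the intron whole, all 138 nt of it. Rps2-203 held the last 146 of 237 nt, and Fcgbp-206 the last 101 of 6433 nt. Rps9-206 held the first 109 of 964 nt and ended there. In Rps9-206 the reading frame met a stop codon 63 nt past the splice site.

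**Figure D1:**
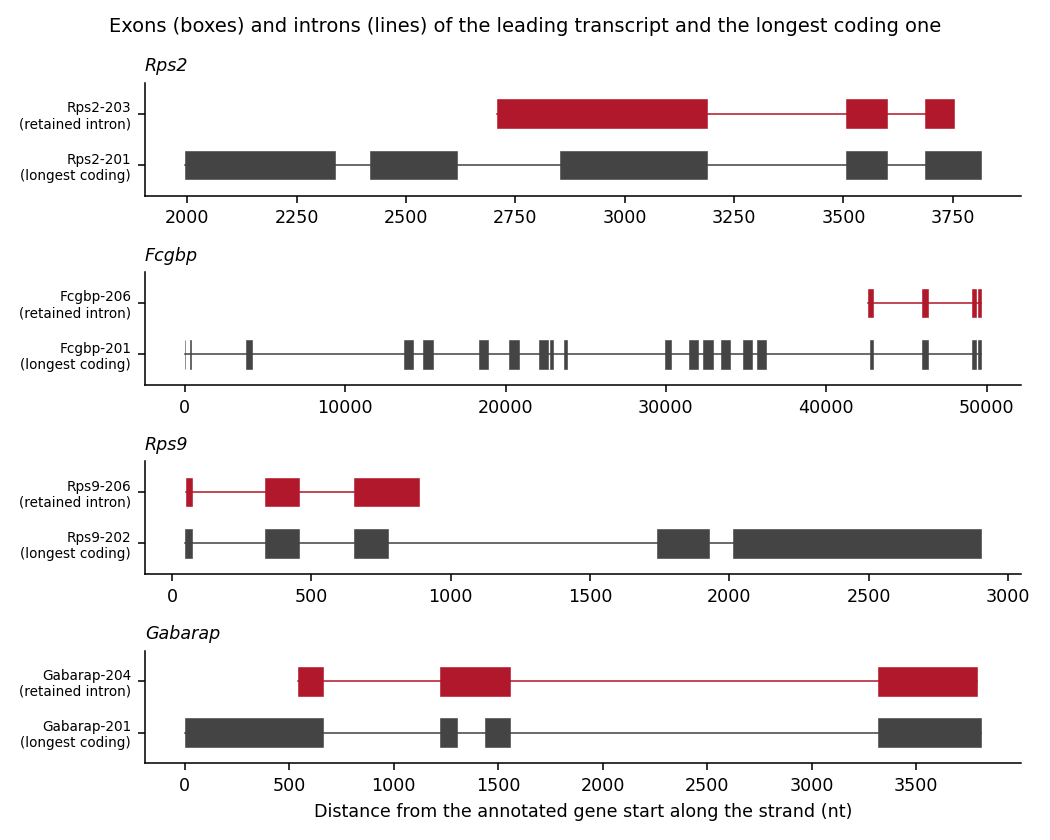
Exons (boxes) and introns (lines) of the leading retained-intron transcript (red, upper row) and the longest coding transcript (grey, lower row) of Rps2, Fcgbp, Rps9 and Gabarap, by distance in nt from the annotated gene start along the strand. Gabarap-204 joins exons across a whole intron of 138 nt, while the other models start (Rps2-203, Fcgbp-206) or end (Rps9-206) inside an intron.

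Across the members, partial models of this kind were the most frequent. Structure could be read for 102 of the 104 transcripts, those with the same length in the deposited tables and in GENCODE M21 (Ugdh and Cers4 differed). A transcript that ran past a 3′ splice site only was found in 55 members (53.9%), against 799 of 2656 other genes (30.1%). Of these, 54 member transcripts and 789 of the others had their first base inside such an intron. The exception among the members was Ccnl2-205, which starts 12 nt from the gene start and crosses the site with an internal exon. A transcript that ran past a 5′ splice site only was found in 26 members (25.5%), against 755 other genes (28.4%). It ended inside such an intron in all 26 members and in 739 of the other genes. A whole intron of a coding transcript was held by 15 members (14.7%), against 897 other genes (33.8%). Both kinds of site without a whole intron were crossed by 2 members, Atp5a1 and Yars2. No coding splice site was crossed in 4 members, Abi1, Arfgef1, Timm17a and Gm10499, the last of which has no coding transcript. Whole introns were thus a smaller part of the members than of the other genes, and transcripts running past a 3′ site only a larger part. Most transcripts of the other genes had a low share, with a median IsoPct of 5.4 in replicate 1 and 3.7 in replicate 2. Of the 877 with a mean IsoPct of at least 10, 358 ran past a 3′ site only, 160 past a 5′ site only, and 314 held a whole intron. Against these 877 the contrast at 3′ sites was smaller, and transcripts past a 5′ site only were a larger part of the members.

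**Figure D2:**
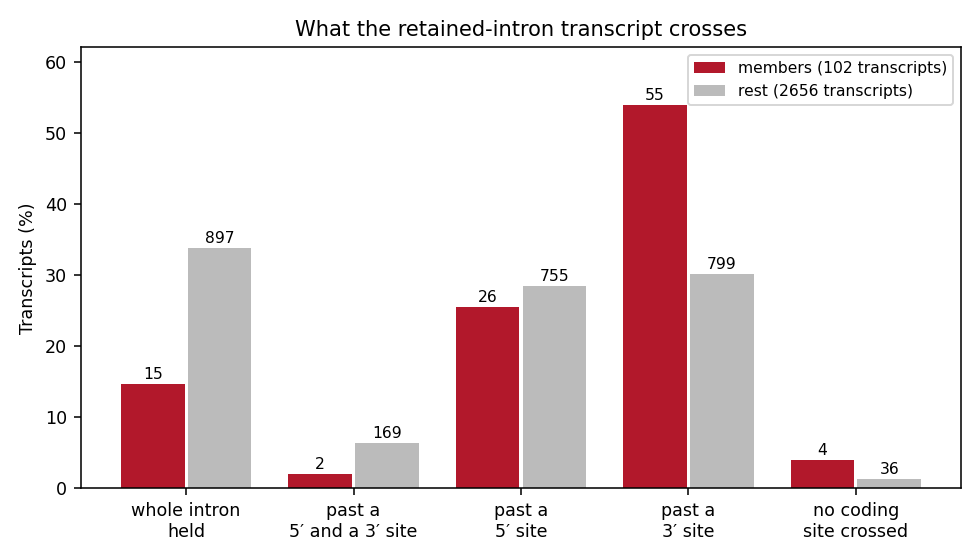
Percent of retained-intron transcripts in each structural class, for the members (red, 102 transcripts) and for the rest (grey, 2656 transcripts), with the number of transcripts above each bar. Members stood at 53.9% past a 3′ site and 14.7% with a whole intron, against 30.1% and 33.8% in the rest at any IsoPct.

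The sites themselves were of the usual kind. Of 52 crossed 5′ sites 51 started with GT, and all 82 crossed 3′ sites ended with AG. Crossed 5′ sites matched a median of 7 of the 9 usual bases (A or C, then A and G before the cut, and G, T, A or G, A, G, T after it) in the members, and 7 of 9 in the other genes. An in-frame stop codon lay in the held part after 42 of the 52 crossed 5′ sites (80.8%), against 2035 of 2311 in the other genes (88.1%). It lay at a median of 34 nt past the site in both sets. The part held next to a crossed site of either kind had a median of 126.5 nt in the members and 223 nt in the other genes. The shares with a stop codon were not adjusted for this length.

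The leading transcripts were short. Their median length was 738.5 nt, with a range of 341 to 4220 nt, against a median of 797 nt for the retained-intron transcripts of the other genes. The longest coding transcript of the same gene had a median of 3388 nt in the members and 2724.5 nt in the other genes. The median ratio of the lengths was 0.25 in the members and 0.35 in the other genes. The rule uses IsoPct, which divides reads by effective length and so favours transcripts that are short against the others of their gene. The selection thus bears on this contrast, and its part was not tested. The leading transcript was under 0.25 of the coding length in 53 of 103 members (51.5%). The retained-intron transcript that represents each other gene, which need not lead it, was so in 930 of 2732 (34.0%). The leading transcript was longer than the coding one in 3 members. These were Ccnl2, a cyclin of transcription and splicing complexes (4220 against 2442 nt), Ndufb10 (834 against 732 nt) and Ankle1 (2410 against 2136 nt).

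**Figure D3:**
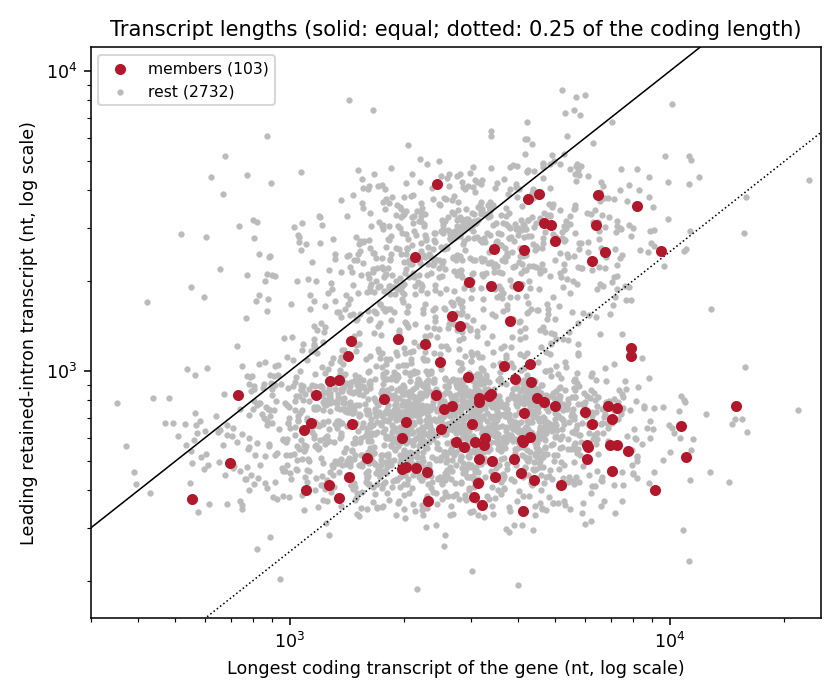
Length of the leading retained-intron transcript against the longest coding transcript of the same gene, both in nt on log axes, for members (red, 103 genes) and the rest (grey, 2732 genes). Most members lie under the solid line of equal length, and 53 of 103 under the dotted line at 0.25 of the coding length. The rule selects on IsoPct, which favours short transcripts.

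Few bases set the leading transcript apart from the other transcripts of its gene. The bases that lie in no other annotated transcript had a median of 91 in the members and 235 in the other genes. Under 100 such bases were found in 57 of 102 members (55.9%), against 714 of 2656 other genes (26.9%). In 11 members no base was unique to the leading transcript, Rps2-203 and Rps9-206 among them. The deposited bounds on TPM did not overlap those of the next transcript in either library for 102 of 104 members, the exceptions being Ndufa10 and Lama4. The posterior SD of the estimated count was at most 11.3% of the count in replicate 1 and 9.75% in replicate 2.

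The median share of a gene held by the leading transcript was far lower by reads than by TPM, since TPM divides reads by the effective length. Median IsoPct, the measure of the rule, was 60.95 in replicate 1 and 67.03 in replicate 2. By expected counts, the same transcripts held a median of 37.8% and 37.9% of their gene's reads. They held at least 50% of the reads in both libraries in 32 of 104 members and under 50% in both in 64. A minority went the other way, with a higher share by reads in both libraries. Among these were Ccnl2 (71.1% and 69.6% of reads, IsoPct 58.90 and 55.52) and Ankle1 (77.7% and 71.6%, IsoPct 67.86 and 53.34). The effective length was 212.03 nt below the length in replicate 1 and 212.5 nt below it in replicate 2 (31 members of 1000 nt or more), so both libraries were scaled nearly alike.

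The gap between both shares was wide in some genes with long coding transcripts. Sorl1-204 is a 654 nt model of the sorting receptor Sorl1, whose longest coding transcript has 10715 nt. It held 53.4% and 66.2% of the gene's TPM but 4.94% and 7.79% of its reads. The coding transcripts of Sorl1 held 94.6% and 92.1% of the reads. The leading transcript was under 10% of reads in both libraries in 6 members, Golgb1, Lama4, Narf and Cand1 among them, which were chosen for naming after their values were seen. Coding transcripts held over 50% of the reads in both libraries in 48 of 104 members.

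**Figure D4:**
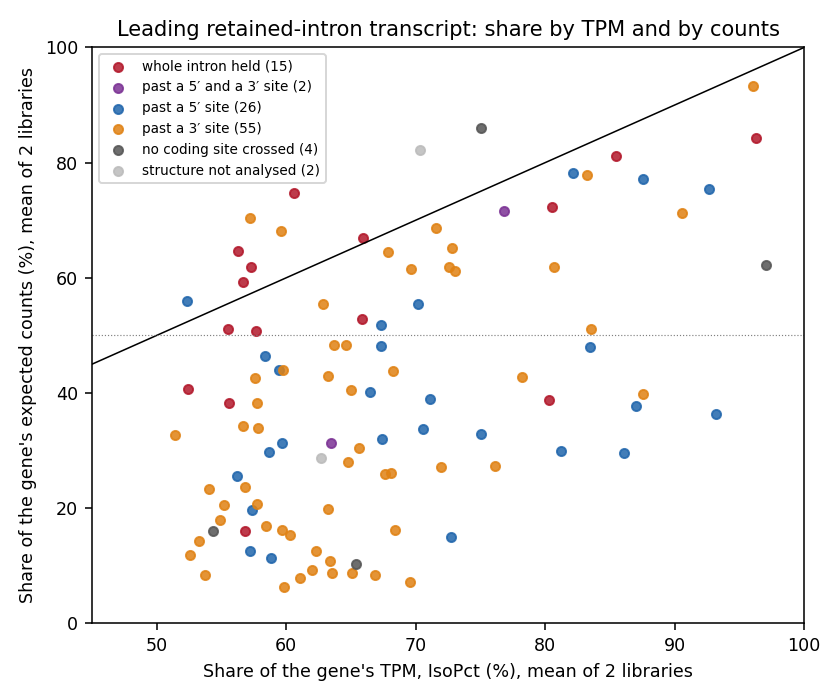
Share of the gene's expected counts against share of its TPM (IsoPct) for the leading retained-intron transcript of each of 104 members, both in percent and as means of the 2 libraries, coloured by structural class. The solid line marks equal shares and the dotted line 50% of counts. Members that hold a whole intron (dark red) have a median of 59.2% of counts, against 30.5% for those past a 3′ site (orange) and 37.0% for those past a 5′ site (blue).

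The class of the transcript went with its share of reads. Members that held a whole intron had a median read share of 59.2%, and 9 of 15 had at least 50% in both libraries. Members that ran past a 3′ site only had a median of 30.5%, and 14 of 55 had at least 50% in both. Members that ran past a 5′ site only had a median of 37.0%, and 5 of 26 had at least 50% in both. Median lengths were 1468, 728 and 581 nt in the same order, so class and length moved together. Their separate parts in the read share were not tested.

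Among the members with a whole intron, 20 annotated introns were held, with some nested pairs that share an end in Gabarap and Ankle1. They had a median length of 192.5 nt and a median GC content of 53.8%, against 223 nt and 53.5% for the whole introns held in the other genes. All introns of coding transcripts had a median of 1103 nt in member genes and 926 nt in the other genes. The held introns were thus short against the introns of the same genes, in members as in the other genes. None of the 20 contained an annotated small RNA gene, against 7 of 1324 (0.53%) in the other genes. The longest were in Kat14 (600 nt), Cmtr1 (490 nt), Ythdf2 (443 nt), Acp2 (439 nt) and Chd8 (396 nt). The shortest were in Gfra4 (53 nt), Cdc23 (75 nt), Ankle1 (77 nt), Trim28 (79 nt) and Mrps26 (80 nt). An intron of one coding transcript can be exon in another. Only 48 bases of the Kat14 model, and 0 of the Gfra4 model, lay outside the exons of all coding transcripts of the gene. The held introns of Kat14 and Gfra4 thus lay mostly or wholly within exons of other coding transcripts.

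An in-frame stop codon was present in 15 of the 20 held introns (75%), against 1087 of 1238 with a readable frame in the other genes (87.8%). The introns of Trim28 and Mrps26 show both cases. The model Trim28-203 starts only 4 exon bases before its intron. Capitals mark the splice site bases and, in Trim28, the stop codon that begins 43 nt into the intron.
Trim28-203, intron at chr7:13030376-13030454, plus strand: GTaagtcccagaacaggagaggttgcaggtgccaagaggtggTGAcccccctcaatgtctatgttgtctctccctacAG
Mrps26-201, intron at chr2:130564228-130564307, plus strand: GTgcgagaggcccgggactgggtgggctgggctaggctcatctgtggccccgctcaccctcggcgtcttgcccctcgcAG

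Of the 5 introns without a stop, the 138 nt intron of Gabarap is the only one whose length is a multiple of 3. Gabarap-204 held 62.46% and 56.03% of the reads of Gabarap, a ubiquitin-like protein of autophagosome membranes. Mrps26-201 held 84.2% and 84.5% of the reads of Mrps26, a protein of the small mitochondrial ribosome subunit. Trim28, a corepressor that binds KRAB zinc finger proteins, stood at the other end: its 2-exon model of 565 nt held 13% and 18.9% of the reads, and its coding transcripts 82.9% and 78.3%. Tap2, which carries peptides into the endoplasmic reticulum for MHC class I, had 80.5% and 81.8% of its reads on Tap2-202, a model of 11 exons with 1 held intron of 162 nt. Chd8, a chromatin remodeller, had 3 held introns of 180 to 396 nt, each with an in-frame stop. In Zfp740 the held intron of 391 nt begins with GC in place of GT.

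The highest members came from several kinds of genes. Together the 104 genes made up 1.75% (replicate 1) and 1.93% (replicate 2) of the summed TPM, and their leading transcripts alone 1.09% and 1.28%. These transcripts made up 24.2% and 31.3% of the TPM of all retained-intron transcripts and 16.2% and 21.9% of their expected counts. Rps2, a protein of the small cytosolic ribosome subunit, had the highest gene level, 2815 and 4086 TPM. Rps2-203 took 52.9% and 62.3% of that TPM and 37.9% and 47.2% of the reads, with coding Rps2-208 next at an IsoPct of 44.64 and 35.91. Fcgbp, a mucus protein of goblet cells, followed with 2242 and 2843 TPM. Fcgbp-206 held 60.04% and 75.22% of it, but 17.97% and 33.9% of the reads, on a model of 1123 nt against 7928 nt for the coding transcript. Atp5a1, the alpha subunit of ATP synthase, had 1737 and 1685 TPM, with an IsoPct of 62.35 and 64.53 for Atp5a1-203. Coding transcripts of all 3 had no less than 210.26 TPM in either library, the value of Fcgbp in replicate 2. Those of Fcgbp held 22.2% and 7.4% of its TPM and 56.4% and 28.2% of its reads, in replicates 1 and 2. Another retained-intron transcript, Fcgbp-205, was next in replicate 2 at an IsoPct of 17.34.

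Rps9, another protein of the small ribosome subunit, had 1597 and 1667 TPM and an IsoPct of 59.95 and 57.38. Gnb1, a beta subunit of heterotrimeric G proteins, had 1111 and 898 TPM and an IsoPct close to the limit, 52.33 and 50.54. Gnb1 was thus higher in replicate 1, while Rps2 and Fcgbp were higher in replicate 2. The calcium-binding protein gene Sri and the TFIID subunit gene Taf10 had a majority of reads on their leading transcript too. Sri-201 held 67.4% and 75.03% of reads and Taf10-202 58.64% and 64.96%. Only 11 of the 640 nt of Sri-201 and 98 of the 601 nt of Taf10-202 lay outside coding exons.

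Of the other members among the 25 highest, 5 held at least 50% of reads in both libraries. These were Gabarap and Ndufb10 with a whole intron, Pyy and Krtcap2 past a 5′ site, and Myo5b past a 3′ site. Pyy-203 has only 6 nt outside coding exons. Ndufb10, a subunit of respiratory complex I, had 305 and 309 TPM, with 58.3% and 65.5% of reads on Ndufb10-202. Krtcap2, a subunit of the oligosaccharyltransferase, had 130 and 184 TPM, with 54.7% and 57.2% of reads on Krtcap2-202. Myo5b, a myosin of apical vesicle transport, had 128 and 89.1 TPM, with 54.6% and 69.2% of reads on Myo5b-210. Further genes of this set lay between 107 and 452 TPM: 2200002D01Rik, Tmem59, Ndufab1, Trim28, Prrc2a, Flii, Dynll1, Tmem183a, Cct3, Gipc2 and Ndufa10. Their read shares ran from 7.86% in Flii to 56.7% in Tmem59, each in a single library.

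An IsoPct of at least 90 in both libraries was reached by 5 members. Timm17a, a subunit of the import channel of the inner mitochondrial membrane, had 97.09 and 97.00. Its model Timm17a-204 has only 4 nt outside coding exons and crosses no coding splice site. Mrps26 had 96.23 and 96.34, and the alpha globin gene Hba-a1 95.13 and 96.88. Mrps33 had 92.81 and 92.45, and the translation initiation factor gene Eif1ax 94.34 and 91.98. Even among these the read shares differed widely: Hba-a1-202 held 91.9% and 94.7% of the reads and Eif1ax-202 40.7% and 32.0%. The next by the lower IsoPct were Sri, Pyy, Cutal, Gins2 and Dpm1, from 85.20 to 89.82 in replicate 1.

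The 32 members with at least 50% of the reads on the leading transcript in both libraries, named here after their values were seen, spanned gene levels from 13.6 to 586 TPM. They have varied roles, and no count over a list stands behind the order in which they are given. Ccnl2-205 held 71.1% and 69.6% of the reads of Ccnl2. Ythdf2, a reader of N6-methyladenosine in mRNA, had 68.0% and 76.4% on Ythdf2-202, a model with a whole intron of 443 nt. Gar1, a protein of H/ACA small RNA particles, had 50.04% and 52.3% on Gar1-205. Elp5, a subunit of Elongator, which modifies tRNA wobble bases, had 66.5% and 67.5% on Elp5-203. Osgep, a tRNA-modifying enzyme, had 56.7% and 54.2%, and Yars2, the mitochondrial tyrosyl-tRNA synthetase, 67.01% and 76.2%.

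Cdk8, the kinase of the Mediator complex, had 57.8% and 65.1% of its reads on Cdk8-203. Gtf2h3, a subunit of TFIIH, had 62.9% and 73.3%, and the elongation factor gene Supt6 59.8% and 62.5%. Rbbp5, a subunit of histone H3K4 methyltransferase complexes, had 65.2% and 72.2%. The models of these 4 genes all ran past a 3′ site. A pair of sphingolipid enzyme genes was in the set as well: Cerk, the ceramide kinase, with 55.4% and 73.6%, and Cers4, a ceramide synthase, with 79.3% and 85.2%. The set also held Pdcl3 (79.4% and 76.3%), Ankle1 (77.7% and 71.6%), Zfp740 (63.8% and 65.3%), Acp2 (51.1% and 51.1%), Plekhg2 (50.06% and 60.8%), Mrpl21 (73.7% and 82.5%) and 2510002D24Rik (60.4% and 69.8%).

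Coding transcripts were detected beside the leading one in nearly all members. They had at least 1 TPM in both libraries in 97 members and at least 10 TPM in both in 37. They were below 1 TPM in both in 2. Gm10499, a locus with no coding transcript in the tables, was at 0, and Dpm1, a subunit of dolichol-phosphate mannose synthase, was at 0.59 and 0.53 TPM. The highest coding shares of TPM were in Kat14 (45.9% and 47.2%), Cct3 (44.78% and 44.98%), Krtcap2 (43.6% and 45.8%), Acp2 (47.5% and 41.7%) and Gabarap (39.2% and 47.5%). The transcript next in IsoPct was coding in both libraries in 76 of 104 members.

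The gene lists were short sets of symbols or name patterns written by hand, so a count of 0 holds for the listed genes alone. Over all 6490 genes at 10 TPM or more, 1.602% were members. At that share a short list would hold few members or none, so a count of 0 says little. No member was among 54 listed splicing factor and RNA-binding protein genes, 6 kinase genes of splicing factors, 17 host genes of small RNAs, 9 genes of nonsense-mediated decay or 12 genes known for detained introns. Members outside that list include Snrpd3, a core protein of spliceosomal particles (IsoPct 72.48 and 77.65), Safb, which binds RNA and DNA (58.35 and 68.16), and Ythdf2. In the lists of splicing factor, splicing kinase and detained-intron genes, the largest retained-intron shares outside the rule were in Prpf38b and Ptbp1. The spliceosome protein gene Prpf38b had an IsoPct of 59.98 and 38.32, and the splicing repressor gene Ptbp1 40.60 and 37.89. Clk1, a kinase of SR proteins with known detained introns, had 20.81 and 22.81. The shares of Srsf3, an SR protein gene, were 39.58 and 12.42. Members made up 4 of 80 nuclear genes of mitochondrial respiration (Atp5a1, Ndufb10, Ndufab1 and Ndufa10) and 4 of 159 transporters (Slc46a3, Slc25a4, Abcb1a and Slc35b4). Of 132 genes of ribosome and translation factors 3 were members, Rps2, Rps9 and Eif1ax. Single members came from epithelial genes (Fcgbp of 33), chromatin genes (Chd8 of 17), ubiquitin genes (Usp16 of 103), zinc finger genes (Zfp740 of 43) and small GTPase genes (Arfgef1 of 100). No member was among 21 listed immune genes, 26 listed genes of muscle and stroma or 108 vesicle genes found by name pattern, and 3 of 242 unnamed loci were members. Those lists leave out Tap2, the laminin gene Lama4, and Sorl1, Golgb1, Vta1 and Myo5b, which act in the Golgi or in vesicle traffic and are members. These members were picked for mention with their values known.

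Proteins of the mitochondrial ribosome formed a group that was chosen after the values were seen. Of 66 such genes at 10 TPM or more, 6 were members (9.09%), against 1.602% of all genes at that level. Mrpl51 had 62.6 and 77.3 TPM with an IsoPct of 82.33 and 84.60, and Mrps33 had 55.1 and 66.9 TPM. Mrpl21 had 51.3 and 52.2 TPM with 78.13 and 86.15, and Mrps5 had 50.4 and 48.2 TPM with 60.84 and 57.97. Mrps26 had 46.9 and 46.3 TPM, and Mrps25 12.1 and 11.2 TPM with 55.94 and 63.39. Of the 6 models 4 ran past a 5′ site, that of Mrps25 past a 3′ site, and that of Mrps26 held a whole intron.

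Few members differed widely in level between the libraries. In replicate 2 over replicate 1, 4.78% of all 6490 genes at 10 TPM or more were at least 2-fold apart in either direction, on the log2(TPM + 1) scale. Of these 310 genes, 40 were higher in replicate 2 and 270 in replicate 1. Of the members, 3 of 104 were at least 2-fold apart, 2 higher in replicate 2 and 1 in replicate 1. Pyy, the gene of the gut hormone peptide YY, had 437 TPM in replicate 2 and 169 TPM in replicate 1, a log2 ratio of 1.37. Regional genes of the gut were far apart as well: in replicate 2 Fabp6 had 5279 TPM, the lactase gene Lct 9.94 TPM and the sucrase-isomaltase gene Sis 79.7 TPM, against 477, 152 and 281 TPM in replicate 1. Their part in the difference of Pyy was not tested. Fewer cells that make a transcript and less of it per cell cannot be told apart in such bulk tissue. Cutal had 30.3 TPM in replicate 2 and 12.7 TPM in replicate 1, a log2 ratio of 1.19. Casp6, an apoptotic caspase gene, had 28.02 TPM in replicate 2 and 74.9 TPM in replicate 1, a log2 ratio of -1.39. The share of the leading transcript hardly moved with these levels: IsoPct was 86.31 in replicate 2 and 88.75 in replicate 1 for Pyy, 86.24 and 87.82 for Cutal, and 69.09 and 67.40 for Casp6.

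The median log2 ratio was -0.04 over the members and -0.10 over all 6490 genes. Both signs turned with other scalings: with TMM-scaled counts the medians were 0.080 over the members and 0.07 over all genes, and with FPKM 0.13 and 0.06. The next largest ratios upward were 0.71 for Dynll1, a dynein light chain gene, 0.56 for Gabarap and 0.54 for Rps2. Downward they were -0.80 for the lysosomal phosphatase gene Acp2, -0.76 for both Tmem30a and Gm10499, and -0.71 for Synj2bp.

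The share of the leading transcript differed between the libraries according to where it lay in its gene. IsoPct was higher in replicate 2 in 70 of 104 members. Of 1131 other retained-intron transcripts with a mean IsoPct of at least 10, 44.3% were higher in replicate 2. Members whose midpoint lay in the 3′ part of the gene, past 66.7% of its length, were higher in replicate 2 in 47 of 53 cases, by a median of 6.29 points. In the middle part this held in 11 of 26 members, with a median difference of -0.42 points. In the 5′ part, up to 33.3% of the length, it held in 10 of 23, with a median of -1.58 points. All 15 members that were over 10 points higher in replicate 2 and had a readable structure lay in the 3′ part.

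In the other genes, too, the part of transcripts with a higher share in replicate 2 was largest toward the 3′ end. For the leading retained-intron transcript of each, at a mean IsoPct of at least 10, the share was higher in replicate 2 in 291 of 478 (60.9%) in the 3′ part, 89 of 280 (31.8%) in the middle and 16 of 119 (13.4%) in the 5′ part. By reads, the members' shares were higher in replicate 2 in 42 of 53, 11 of 26 and 11 of 23 in the same order. By class, the share was higher in replicate 2 in 43 of 55 members past a 3′ site and in 8 of 26 past a 5′ site. Usp16-210, which covers the end of a ubiquitin protease gene, had an IsoPct of 78.60 in replicate 2 and 58.21 in replicate 1. Lrp1-208, at the end of a lipoprotein receptor gene, had 73.48 in replicate 2 and 56.62 in replicate 1. Tmem30a-203, which ends inside an intron of a lipid flippase subunit gene, had 63.82 in replicate 2 and 78.34 in replicate 1. Read coverage along the transcripts is not given in the tables used here, and its part in the difference was not tested.

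**Figure D5:**
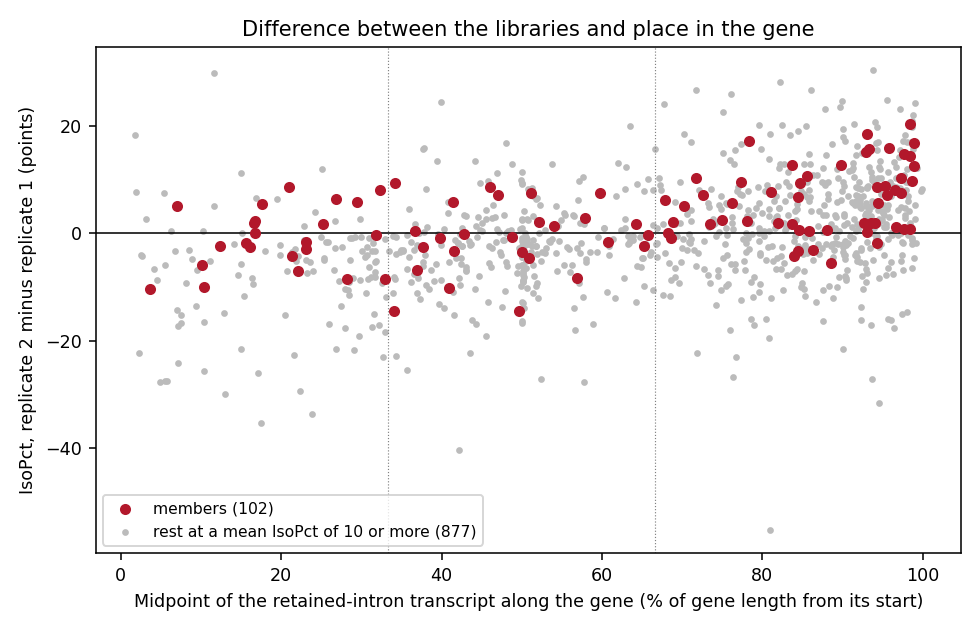
Difference in IsoPct between the libraries (replicate 2 minus replicate 1, in points) against the midpoint of the retained-intron transcript along its gene (percent of gene length from the start), for members (red, 102) and for the rest at a mean IsoPct of 10 or more (grey, 877). Dotted lines divide the genes at 33.3% and 66.7%. In the 3′ part 47 of 53 members lie above 0, against 10 of 23 in the 5′ part.

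The limits of the rule fell within a continuous range of values. Just inside the IsoPct limit lay Trim28 (50.50 and 63.06), Gnb1, Prrc2a (51.28 and 58.53), Krtcap2 (53.25 and 51.42) and Ndufa10 (51.88 and 60.56). Just outside lay Gcc2 (49.94 and 64.77), Tfrc (49.81 and 70.09), Rpain (49.76 and 58.35), Eif2b2 (49.49 and 50.26) and Bola3 (49.42 and 57.78). Just inside the limit of 10 TPM lay Gfra4 (10.3 and 12.6 TPM), Arrdc3 (11.7 and 10.4 TPM) and Mrps25. Just outside lay Pnpla7 (17.6 and 8.98 TPM) and Pcmtd2 (15.1 and 8.96 TPM).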

How the data were processed

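The authors deposited, per library, a gene table and a transcript table on build mm10 with GENCODE M4, per the file headers and notes. They were made with an aligner and quantifier not given in the sources used here. Expected counts, as deposited, are estimates that may be fractional. TPM and FPKM were scaled to depth and effective length by the authors. IsoPct, the percent of the gene's TPM held by a transcript, was used as deposited. The bounds on TPM, a deposited signal column whose level is not stated, and the deposited posterior SD were used as given.

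Transcript types, exons and sequences came from GENCODE M21 (GRCm38), matched on the identifier without its version. Of 103639 transcripts 2129 did not match. Of the leading transcripts 80 of 104 had the same version and 102 the same length, and only the latter entered structural counts. An intron counted as held whole when it lay within 1 exon, with at least 1 exon base on each side, and had at least 30 nt. A splice site counted as crossed when at least 6 intron bases were held. Ratios set replicate 2 over replicate 1 on the log2(TPM + 1) scale, on which differences of low genes are understated. No p-value was computed, with 1 library against 1. The members and lists were chosen with earlier results of these data known. Genes were named by rule: the 25 highest members, extremes of IsoPct, ratio, intron length and coding share, neighbours of the limits, and list members. Single examples outside it (Sorl1, Tap2, Usp16, Lrp1 and others given with a contrast) were chosen after their values were seen. Python 3.11.15 with pandas 2.3.3 was used, and edgeR 4.0.16 and DESeq2 1.42.0 (R 4.3.3) for scaling alternatives. The steps were tested on simulated data. The deposited junction and contig lists, on build mm9, were not used here. Some genes that the naming rule selects are not reported here.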

Additional observations from a re-analysis of the deposited data

How the results depend on the processing

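The number of members moved with the IsoPct limit and with what is shared out. By expected counts in place of TPM, 43 genes met the rule, 33 of them members, and the median share was 38.6% against 64.9%. With an IsoPct limit of 40 there were 190 genes and at 70 there were 26. Without a TPM limit there were 226, and with the shares of all retained-intron transcripts of a gene summed also 226. With 1 library alone the number was 143 to 168, and limits of 5 or 20 TPM, posterior means or members of unchanged transcript version left it within 1.5 times of 104. The median log2 ratio of the members was 0.080 with TMM-scaled counts and 0.13 with FPKM, and that of all 6490 genes moved the same way, to 0.07 and 0.06 from -0.10. The median length ratio was 0.19 by effective length, the members' share of TPM 2.03% without mitochondrial genes and spike-ins against 1.84%, and the introns of the longest coding transcripts alone had medians of 162 nt and 54.4% GC. The count of members at least 2-fold apart stayed at 2 or 3, and 66 to 71 members were higher in replicate 2 by count share or posterior mean, both added after seeing the data, as was the restriction to unchanged versions (11 members with a whole intron, 79 shorter than coding). No paired analysis was possible because there is 1 group. Depth limits the low members: the lowest leading transcript had 76.16 counts in replicate 1.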
